A study of Homo sapiens with 4 samples.

Results

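To examine how chromatin accessibility around the AP-1 transcription factor genes differed with TWEAK, 10 genes were taken by their name in GENCODE release 44. These were JUN, JUNB, JUND, FOS, FOSB, FOSL1, FOSL2, ATF3, BATF and BATF3. All accessible sites within 100 kb of any annotated start site of these genes were collected, which gave 700 of the 307691 sites on chromosomes 1 to 22 and X. The rule uses gene names and distances, not measured values, although the genes were picked with earlier results of these data known. A site is a stretch covered by ATAC-seq peaks of any library, with peaks joined where they overlapped by at least 1 bp. ATAC-seq maps open chromatin through the insertion of sequencing adaptors by the Tn5 transposase.

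AP-1 is a family of dimeric transcription factors whose subunits pair through a leucine zipper and bind DNA through an adjoining basic region. JUN proteins form homodimers or pair with FOS proteins, whereas FOS proteins bind DNA only with a partner, and ATF3, BATF and BATF3 are related subunits that pair with JUN proteins. Many of these genes are immediate early genes, transcribed within minutes of growth factor, stress or cytokine signals through MAP kinases, and several AP-1 subunits regulate their own genes. In breast cancer cells AP-1 is known for its part in proliferation, invasion and the response to growth factor signalling.

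Libraries were made from SKBR3 cells, a human breast cancer line that overexpresses HER2 from an amplified ERBB2 locus. The 2 untreated libraries and the 2 TWEAK-treated libraries came from the same line, and no genetic change was made in either group. TWEAK, the cytokine encoded by TNFSF12 that acts through the receptor Fn14, was added to cells starved for 8 h and left on for 48 h at 10 ng/ml, with a new dose after 24 h. The labels carry one growth protocol for all libraries and do not say whether untreated cells had a matched medium change. Samples of a cell line are described in the study's methods as biological replicates. A single cell line at a single time point was measured, so an early wave of AP-1 induction lies outside these data.

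Between 195388 and 228734 peaks were listed per library. Depth differed, and the background pileup that the values imply was 3.59 and 2.24 in untreated and 2.63 and 1.85 in TWEAK replicates 1 and 2. Because the deposited value of a peak depends on depth, peaks were compared by their rank percentile within a list, where 100 is the strongest peak. Fold over background, the recovered pileup divided by the background of its list, served as another scale. Read totals are not given by peak lists, so absence of a peak means that none was listed at this depth. Promoter peaks of all 9 luminal and HER2-associated breast genes checked, among them ERBB2, KRT8 and GATA3, were present in all 4 lists. Of 8 genes of blood, endothelial and fibroblast cells, 5 also had a promoter peak in all 4 lists and 1 had none, so promoter peaks alone do not separate cell types here.

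The promoters of JUN, JUND and ATF3 are shown first, because each holds a full palindromic or near-palindromic bZIP element in the bases before a RefSeq start. Capitals mark the element, which is TGACATCA in JUN and ATF3 and the cAMP response element TGACGTCA in JUND. The JUN stretch is chr1:58784048-58784297 on the minus strand, the JUND stretch is chr19:18281623-18281872 on the minus strand, and the ATF3 stretch is chr1:212565157-212565333 on the plus strand and lies before the upstream one of the ATF3 starts listed. All are from RefSeq on GRCh38.p14, identical to hg38.
JUN promoter: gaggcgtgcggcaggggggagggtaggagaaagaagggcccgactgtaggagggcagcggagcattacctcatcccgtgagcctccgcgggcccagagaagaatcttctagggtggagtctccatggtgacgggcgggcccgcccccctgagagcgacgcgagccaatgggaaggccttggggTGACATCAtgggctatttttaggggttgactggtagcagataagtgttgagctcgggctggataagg
JUND promoter: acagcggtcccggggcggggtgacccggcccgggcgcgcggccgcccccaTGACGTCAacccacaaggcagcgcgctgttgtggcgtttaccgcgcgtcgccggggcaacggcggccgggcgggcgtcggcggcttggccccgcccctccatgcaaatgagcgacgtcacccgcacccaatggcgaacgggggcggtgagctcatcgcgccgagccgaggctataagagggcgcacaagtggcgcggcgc
ATF3 upstream promoter: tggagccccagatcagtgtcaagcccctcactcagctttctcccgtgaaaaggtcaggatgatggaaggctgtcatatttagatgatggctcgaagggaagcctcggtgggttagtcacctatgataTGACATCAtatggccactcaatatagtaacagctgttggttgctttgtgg
The RefSeq table held 9 promoters of 8 members, and FOSL1 and BATF3 were not among them. Within 250 bases before the start, on either strand, TGACATCA was found in 2 of these 9 promoters and in 2.37% of all 35116 promoters, and TGACGTCA in 1 of 9 and 1.65%. The AP-1 consensus TGACTCA was in 0 of 9 promoters and in 4.20% of all. The NF-kB consensus and the CArG box, the serum response factor element, were also in 0 of 9, against 9.96% and 1.16% of all. The GC box GGGCGG was in 7 of 9 and in 42.6% of all. The windows differ from the promoter sites described below, where the 201 bases around the strongest peak hold TGACTCA in FOSL2 and a CArG box in FOS. All these matches describe letters in these windows only.

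Away from promoters, 5 sites are shown as examples of motif matches in sites that differed between the lists. They are the gained site with the highest ranks near JUN, JUND and BATF, and the shared sites inside ATF3 and BATF that ranked higher with TWEAK by the widest gap within the gene. Each stretch covers 100 bp on either side of the centre of the strongest peak, from hg38 on the plus strand. Capitals mark the AP-1 consensus TGACTCA on either strand or the NF-kB consensus. Positions are chr1:58881617-58881817 for JUN, chr19:18231256-18231456 for the JUND window, chr14:75514511-75514711 for the gained BATF site, chr1:212601010-212601210 for the ATF3 intron and chr14:75540196-75540396 for the BATF intron.
JUN distal, gained: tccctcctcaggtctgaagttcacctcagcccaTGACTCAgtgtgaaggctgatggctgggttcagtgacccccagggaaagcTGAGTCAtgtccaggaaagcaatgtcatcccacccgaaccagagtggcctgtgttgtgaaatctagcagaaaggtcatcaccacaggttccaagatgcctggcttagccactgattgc
JUND window, gained: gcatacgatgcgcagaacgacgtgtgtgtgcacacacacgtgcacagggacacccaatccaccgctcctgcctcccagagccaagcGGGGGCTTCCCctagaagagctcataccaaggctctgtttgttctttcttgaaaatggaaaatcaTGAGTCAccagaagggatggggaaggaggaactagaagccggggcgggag
BATF upstream, gained: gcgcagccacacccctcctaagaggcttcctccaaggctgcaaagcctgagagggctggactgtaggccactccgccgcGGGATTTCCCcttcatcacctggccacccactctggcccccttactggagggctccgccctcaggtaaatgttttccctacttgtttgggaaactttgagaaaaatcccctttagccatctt
ATF3 intron, shared: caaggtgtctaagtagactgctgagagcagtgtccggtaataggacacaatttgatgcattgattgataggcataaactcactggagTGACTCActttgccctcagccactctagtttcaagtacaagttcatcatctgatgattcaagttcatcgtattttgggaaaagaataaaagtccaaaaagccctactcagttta
BATF intron, shared: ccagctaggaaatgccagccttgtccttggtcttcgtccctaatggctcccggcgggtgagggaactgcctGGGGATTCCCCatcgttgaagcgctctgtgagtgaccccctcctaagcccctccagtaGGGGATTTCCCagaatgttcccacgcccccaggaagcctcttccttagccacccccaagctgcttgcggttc
The JUN distal stretch holds the AP-1 consensus at 2 places, and the JUND window holds it once beside an NF-kB match. Overlapping NF-kB matches are joined in the capitals, as in the BATF intron. These examples are not typical, since 7 of the 20 gained sites hold either motif, and the gained site with the highest ranks, in the ATF3 window, holds neither.

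Of the 700 sites around the AP-1 genes, 482 (68.9%) had a peak in at least 1 list of each treatment, beside 63.5% of all sites. In all, 340 (48.6%) had a peak in all 4 lists, compared with 42.8% of all sites. A peak in both TWEAK lists and in neither untreated list, called gained, was found at 20 of the 700 sites (2.86%), beside 3.60% of all sites. The reverse pattern, called lost, was found at 25 sites (3.57%), beside 3.79% of all sites. Both shares lay near the genome-wide ones under these definitions. With peaks of at least 5 times the background only, 5 sites were lost (0.986%, beside 2.33% of all sites) and 23 gained (4.54%, beside 5.90%). None of these differences in share was tested.

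Few of these were strong. Gained sites above the 50th percentile in both TWEAK lists numbered 5 (0.714%), beside 0.591% of all sites, and lost sites above it in both untreated lists numbered 2 (0.286%), beside 0.210%. An untreated peak lay within 500 bp of 8 of the 20 gained sites (40.0%, beside 27.5% of all gained sites). Likewise, 9 of the 25 lost sites had a peak of a TWEAK list at most 500 bp away (36.0%, beside 34.1% of all lost sites). The median of the lower of both ranks was the 25.2 percentile for gained and the 15.1 percentile for lost sites, close to the 25.5 and 15.1 of all gained and lost sites, and these were weak peaks in the lists that held them. At least 1 gained site lay near 8 of the 10 members, and 63.2% of protein-coding genes had one within 100 kb. At least 1 lost site lay near 10 of 10, beside 62.6% of genes. JUNB and FOS were the members without a gained site. The members lie in denser surroundings than most genes, with a median of 75 sites per member against 34 per gene.

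**Figure D1:**
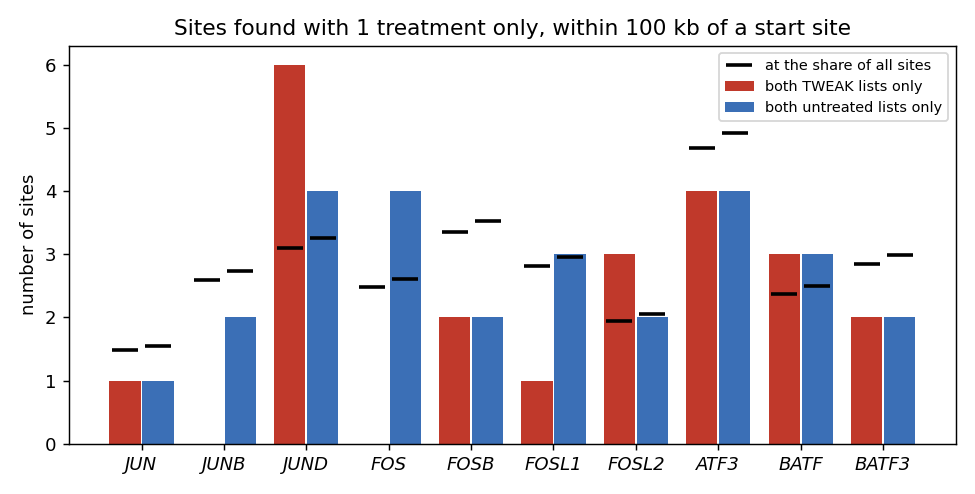
Number of sites with a peak in both TWEAK lists only (red) or both untreated lists only (blue) within 100 kb of a start site of each member. Black dashes show the number a member would have at the share of all sites. JUND had 6 gained and 4 lost sites, FOS 0 and 4, and counts for JUN, FOSB, ATF3, BATF and BATF3 were equal in both directions.

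Among the 340 sites in all 4 lists, 40 (11.8%) ranked higher in both TWEAK lists than in both untreated lists, beside 15.8% of all such sites. The reverse held at 134 (39.4%), beside 35.4%. This split depended on the scale. Ranked only among sites in all 4 lists, 68 were higher (20.0%, beside 23.3%) and 103 lower (30.3%, beside 28.0%). By fold over background, 101 were higher (29.7%, beside 34.8%) and 43 lower (12.6%, beside 12.2%). The larger number was thus of lower sites on both rank scales and of higher sites by fold. On all 3 scales together, 40 sites were higher, beside 15.4% of all such sites, and 43 were lower, beside 12.2%. On every scale the share of higher sites near AP-1 genes was below that of all shared sites, and the difference between the shares was not tested.

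**Figure D2:**
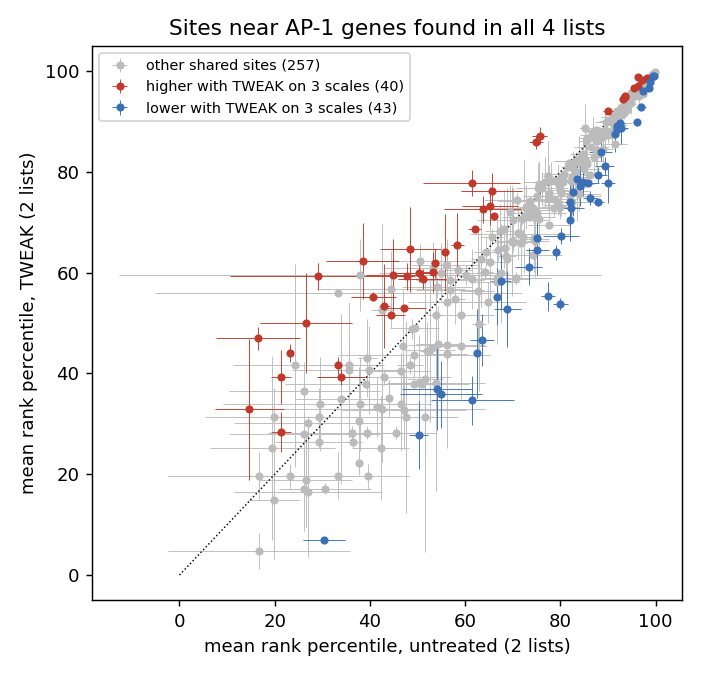
Mean rank percentile of each of the 340 shared sites near AP-1 genes in the 2 untreated lists (horizontal) and the 2 TWEAK lists (vertical), with SD bars (n = 2). Red points (40) were higher and blue points (43) lower with TWEAK on all 3 scales, and grey points (257) were neither. The spread between replicates was widest at low ranks.

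The main promoter site of each member, the site within 1 kb of a start with the highest mean rank, was present in all 4 lists for all 10 genes. In 4 of the 10 it ranked lower in both TWEAK lists (35.6% of 15168 genes with such a site) and in 1 it ranked higher (8.37%). In the other 5 the treatments overlapped. The balance turned with the scale. Ranked among shared sites only, 3 were lower (28.3% of all genes) and 2 higher (13.8%), and by fold over background 2 were lower (7.27%) and 3 higher (25.1%). With 2 against 2 libraries, the two-sided exact permutation test cannot go below p = 0.333, so no difference given here can pass a threshold of 0.05. By mean rank the order was ATF3, JUN, BATF, FOSL2, JUND, FOS, JUNB, FOSL1, FOSB and BATF3. Ranks of neighbours in this order overlapped except between JUN and BATF, FOSL2 and JUND, JUNB and FOSL1, and FOSB and BATF3. The median over all genes was the 91.5 percentile, and 8 of the 10 members lay above it.

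**Figure D3:**
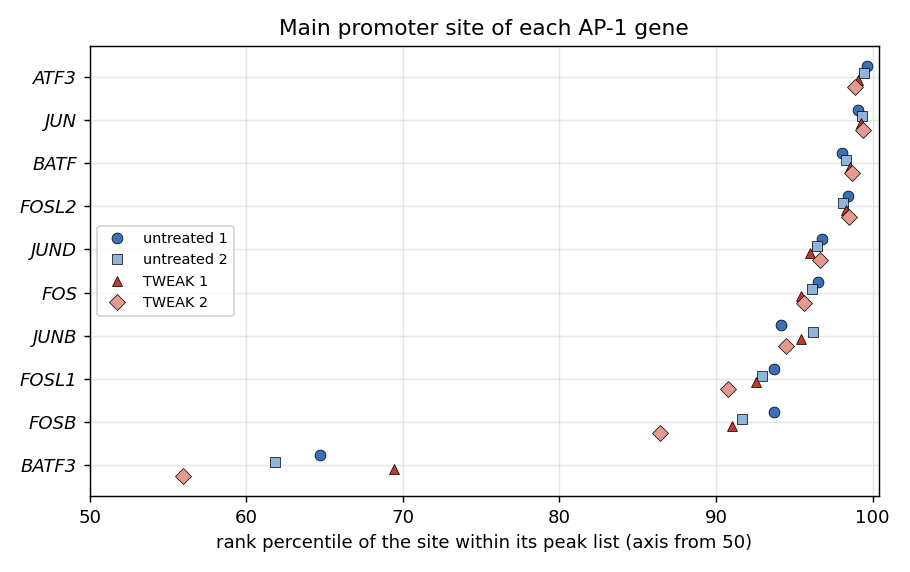
Rank percentile (axis from 50 to 100) of the main promoter site of each AP-1 gene in the 4 peak lists, one point per library. ATF3, JUN, BATF and FOSL2 sit above 98 in every list, whereas BATF3 lies between 56.0 and 69.4.

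JUN encodes the founding AP-1 subunit and lies on the minus strand at chr1:58776845-58784048. Its main promoter site covered the start, at chr1:58783866-58784432, and holds the TGACATCA element printed above. It ranked at 99.1 and 99.3 in the untreated lists and at 99.3 and 99.4 in the TWEAK lists. Fold over background was 117 and 147 in untreated and 140 and 159 in TWEAK-treated cells, and the groups overlapped on both scales (difference in rank 0.12, exact permutation test p = 0.667). Ranked among shared sites only, it was higher in both TWEAK lists. The JUN promoter was therefore among the strongest sites of these cells with and without TWEAK.

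Within the JUN window 31 and 35 sites were listed in untreated and 29 and 29 in TWEAK libraries, a difference of -4 (exact permutation test p = 0.333). With peaks of at least 5 times the background the difference was 1, and the groups overlapped. Of 41 sites in all, 24 were in all 4 lists, 1 was gained and 1 lost. The gained site, 97.7 kb upstream at chr1:58881467-58881988, is the one with the AP-1 consensus at 2 places. It was weak, at the 16.4 and 27.3 percentiles, and no untreated peak lay within 14595 bp. Among shared sites, 1 of 24 was higher (4.17%, beside 15.4% of all) and 4 were lower (16.7%, beside 12.2%) on all 3 scales. The higher one, 19.1 kb upstream at chr1:58802871-58803420, ranked at 19.8 and 22.8 in untreated and 35.5 and 43.0 in TWEAK lists. The site 10.5 kb downstream of the start, at chr1:58773310-58773862, differed the other way, at 55.3 and 67.7 against 38.1 and 31.2. TWEAK and untreated ranks did not overlap at either of these sites.

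JUNB encodes a JUN family member that often opposes JUN in growth control, and lies at chr19:12791486-12793315. Of its promoter sites the strongest, at chr19:12790020-12790566, did not cover the start and ranked at 94.1 and 96.2 in untreated and 95.5 and 94.5 in TWEAK lists. The site over the start, at chr19:12791196-12791758, ranked at 95.4 and 94.4 in untreated and 95.3 and 92.1 in TWEAK lists. Both overlapped between the treatments.

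Around JUNB, 62 and 60 sites were listed in untreated and 54 and 54 in TWEAK libraries, a difference of -7 (exact permutation test p = 0.333). The difference was 0 with peaks of at least 5 times the background, and the groups overlapped with a deposited value of at least 5. No site was gained, and both lost sites were weak. They lay 3.92 kb downstream of the start in an intron of HOOK2 (30.3 and 28.8) and 11.8 kb downstream at a promoter of THSD8 (23.7 and 40.8). Of 46 shared sites, 5 (10.9%, beside 15.4% of all) were higher and 7 (15.2%, beside 12.2%) lower on all 3 scales. The widest gap upward was at chr19:12751252-12752020, a promoter of BEST2, with 44.0 and 37.4 in untreated and 54.6 and 56.0 in TWEAK lists. A site 99.5 kb downstream at a promoter of GCDH had high ranks throughout, at 97.4 and 96.7 in untreated and 98.2 and 98.4 in TWEAK lists.

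JUND, the JUN family member that is often present in resting cells, lies on the minus strand at chr19:18279694-18281622. The main promoter site, at chr19:18281577-18282135, contains the cAMP response element printed above. It ranked at 96.8 and 96.5 in untreated and at 96.0 and 96.6 in TWEAK lists, and the groups overlapped on all 3 scales. A weaker promoter site 1.92 kb downstream, at chr19:18279433-18279973, was lower with TWEAK on all 3 scales, at 81.3 and 82.8 against 76.6 and 71.4 (exact permutation test p = 0.333). The strongest JUND promoter site thus showed no separation of the groups, and a weaker neighbour did.

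JUND had more gained sites than any other member, 6 gained and 4 lost of 86 (6.98% and 4.65%, beside 3.60% and 3.79% of all sites). These shares rest on few sites and were not tested. Only 1 of the 6 was strong. It lay 50.3 kb downstream in an intron of PDE4C at chr19:18231106-18231628, ranked at 67.5 and 63.2, and is the stretch above with both an AP-1 and an NF-kB match. Fold over background there was 15.2 and 16.2, and no untreated peak was closer than 1422 bp. The gained site closest to the JUND start, 1.32 kb upstream, was weak at 35.5 and 17.9, and an untreated peak lay 115 bp from it. Of 33 shared sites, 2 (6.06%, beside 15.4%) were higher and 6 (18.2%, beside 12.2%) lower on all 3 scales. Numbers of sites did not separate the groups, with 59 and 57 in untreated and 64 and 53 in TWEAK libraries.

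FOS, a classical immediate early gene, lies at chr14:75278826-75282230. Its main promoter site, at chr14:75278223-75279153, ranked at 96.5 and 96.1 in untreated and at 95.5 and 95.6 in TWEAK lists, a difference of -0.767 (exact permutation test p = 0.333). By fold over background the same site was 72.5 and 78.3 in untreated against 71.4 and 81.8 in TWEAK lists, so the groups overlapped and the mean was 1.20 higher with TWEAK. Re-ranked among shared sites the groups overlapped too, and with peaks merged at 250 bp the difference was -2.01. A second promoter site, at chr14:75279244-75280715, was lower with TWEAK on all 3 scales, at 83.1 and 82.2 against 79.4 and 72.7.

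The FOS window had the largest difference in site number among the members, with 51 and 59 sites in untreated and 49 and 42 in TWEAK libraries (difference -9.5, exact permutation test p = 0.333). With peaks of at least 5 times the background only, the difference was 1. There were 0 gained and 4 lost sites of 69. The lost sites were weak, the strongest being 72.4 kb upstream at 40.2 and 43.8, and 6.46 kb downstream at 23.7 and 51.0. Of 36 shared sites, 6 (16.7%) were higher with TWEAK on all 3 scales, near the 15.4% of all shared sites, and 5 (13.9%) were lower, beside 12.2%. The site 7.72 kb downstream ranked at 44.0 and 53.0 in untreated and 70.6 and 58.6 in TWEAK lists, and the site 60.4 kb downstream, at chr14:75338841-75339685, at 19.8 and 33.5 against 57.0 and 43.0. At both sites the TWEAK and untreated ranks did not overlap.

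FOSB encodes a FOS protein whose splice form ΔFosB accumulates under repeated stimulation, and lies at chr19:45467995-45475179. Its main promoter site was downstream of the start, at chr19:45469576-45470542, and was lower with TWEAK on all 3 scales. It ranked at 93.7 and 91.6 in untreated and at 91.0 and 86.4 in TWEAK lists, a mean of 92.7 ± 1.46 against 88.7 ± 3.24 (SD, n = 2, exact permutation test p = 0.333). Fold over background was 54.6 and 51.0 against 49.4 and 42.8. The site over the start itself, at chr19:45467493-45468940, was 85.5 and 85.5 in untreated and 84.1 and 79.1 in TWEAK lists.

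The FOSB window lies in gene-dense sequence, and of its 93 sites only 12 were nearest to FOSB. The 2 gained and 2 lost sites were all under the 50th percentile, and the stronger gained one, 27.6 kb upstream in an intron of ERCC1, ranked at 32.5 and 40.5. Of 52 shared sites, 4 (7.69%, beside 15.4% of all) were higher and 5 (9.62%, beside 12.2%) lower on all 3 scales. Numbers of sites were 72 and 72 in untreated and 78 and 63 in TWEAK libraries, so the TWEAK libraries lay on either side of the untreated ones. The widest gaps upward of any shared site near a member were nonetheless here. They were a VASP promoter 50.7 kb downstream (10.3 and 22.8 in untreated, 48.6 and 45.3 in TWEAK lists) and a PPP1R13L intron 67.6 kb upstream (23.7 and 22.8 against 42.8 and 45.3). Both lie closer to the start of another gene than to FOSB.

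FOSL1 encodes FRA-1, the FOS protein known from invasive breast cancer cells, and lies on the minus strand at chr11:65892049-65900573. Its main promoter site, at chr11:65900336-65900864, ranked at 93.7 and 92.9 in untreated and at 92.6 and 90.8 in TWEAK lists, a difference of -1.65 (exact permutation test p = 0.333). Fold over background overlapped, at 54.6 and 56.8 against 55.5 and 55.8. The window had 1 gained and 3 lost sites of 78 (1.28% and 3.85%, beside 3.60% and 3.79% of all sites). Of 31 shared sites, 3 (9.68%, beside 15.4% of all) were higher and 3 (9.68%, beside 12.2%) lower on all 3 scales. A lost site at an EFEMP2 promoter 30.4 kb downstream, at chr11:65869523-65870425, was strong in untreated lists (65.4 and 51.0), although a TWEAK peak lay only 65 bp away. At a CTSW promoter 19.9 kb downstream, ranks were 27.2 and 33.5 in untreated and 6.6 and 7.4 in TWEAK lists. At the FIBP promoter 11.8 kb downstream they were 95.2 and 95.7 against 96.6 and 96.6.

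FOSL2, which encodes FRA-2, lies at chr2:28392448-28417317 and had 3 gained and 2 lost sites of 54. Its main promoter site, over the start at chr2:28392551-28393075, ranked at 98.4 and 98.1 in untreated and 98.3 and 98.5 in TWEAK lists. The ranks overlapped, and fold over background was higher with TWEAK, at 97.9 and 104 against 106 and 121. The numbers of sites were 32 and 39 in untreated and 34 and 34 in TWEAK libraries.

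Strong gained sites made up 0.591% of all sites. Of the 5 near members, 2 were among the 54 sites at FOSL2, a small count that was not tested. One of them, 43.1 kb downstream at chr2:28435696-28436204, ranked at 58.2 and 54.5, had an untreated peak 383 bp away and holds TGACATCA. Of 22 shared sites 4 (18.2%, beside 15.4% of all) were higher and 1 (4.55%, beside 12.2%) lower on all 3 scales. The higher ones included neighbouring sites 53.0 kb downstream (54.2 and 68.5 in untreated, 79.7 and 76.0 in TWEAK lists) and 55.5 kb downstream (33.1 and 43.8 against 57.0 and 67.6). Gained and higher sites at FOSL2 lay on the downstream side of its start, with 1 exception among the higher sites, 2.24 kb upstream. They were not compared with the positions of all sites in this window, so no direction is read from them.

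**Figure D4:**
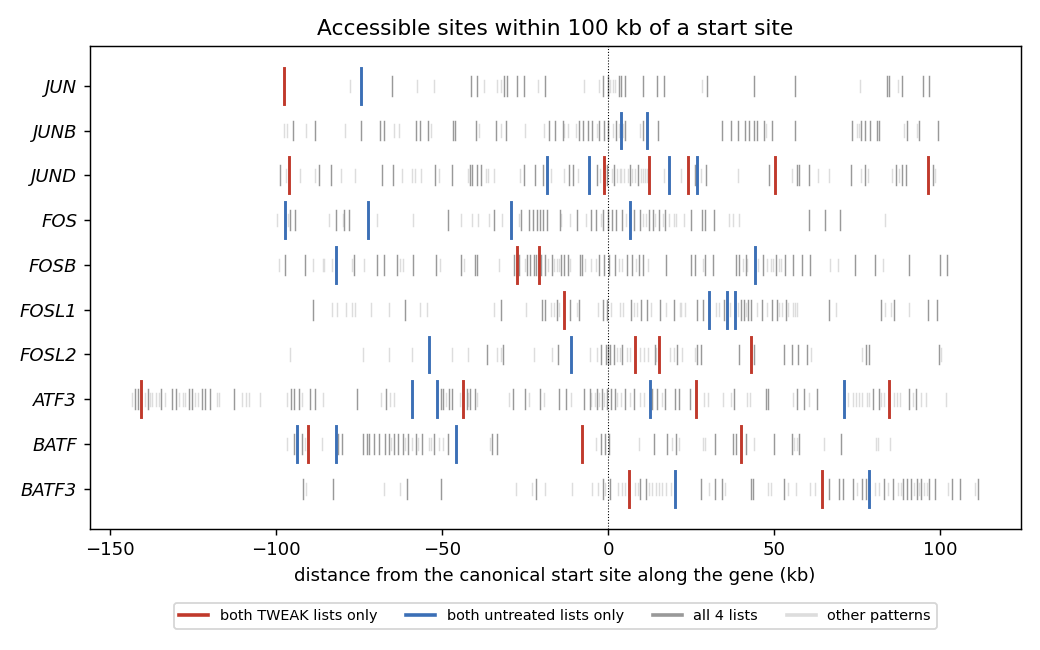
Position of every accessible site near each AP-1 gene, as distance in kb from the canonical start along the direction of the gene. Red ticks mark sites in both TWEAK lists only, blue ticks sites in both untreated lists only, and dark grey ticks sites in all 4 lists. Neither colour was found at a canonical start, and the red tick nearest to one is the JUND site 1.32 kb upstream.

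ATF3 encodes a stress-induced bZIP protein that often represses transcription, and lies at chr1:212565334-212620777. Its main promoter site, at chr1:212608259-212608846, had the highest mean rank of all members and was lower with TWEAK on all 3 scales. Ranks were 99.7 and 99.5 in untreated and 99.1 and 98.9 in TWEAK lists, a mean of 99.6 ± 0.153 against 99.0 ± 0.156 (SD, n = 2, exact permutation test p = 0.333). Fold over background was 157 and 157 in untreated and 130 and 134 in TWEAK lists. At the upstream promoter, whose TGACATCA element is shown above, a weak gained site was found (29.2 and 23.0), with an untreated peak 301 bp away. A shared site beside it, at chr1:212565838-212566363, ranked at 78.3 and 86.6 in untreated and 72.2 and 76.0 in TWEAK lists. The element itself lies between these sites.

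ATF3 had the most sites, 130, of which 4 were gained and 4 lost, and 68 of them are also within 100 kb of a BATF3 start. Inside the gene, 3 intronic sites upstream of the canonical start were higher with TWEAK on all 3 scales. The one at chr1:212600853-212601962, 7.35 kb upstream, holds the AP-1 consensus and ranked at 74.6 and 76.8 in untreated and 88.5 and 86.0 in TWEAK lists. Its fold over background was 17.3 and 20.6 against 41.4 and 41.7. The sites 12.5 kb and 14.9 kb upstream ranked at 94.2 and 92.8 against 95.6 and 94.3, and at 48.9 and 46.5 against 61.2 and 57.3. Within 1 gene, the canonical promoter was thus lower and these intronic sites higher in both TWEAK lists.

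Farther upstream of ATF3, outside the gene, lay sites with wide gaps downward and also a gained site. The site at chr1:212541625-212542206, 66.8 kb upstream, ranked at 78.9 and 81.0 in untreated and 54.6 and 52.9 in TWEAK lists, with fold over background 21.2 and 25.5 against 9.87 and 11.9. The site 93.2 kb upstream ranked at 88.8 and 87.1 against 73.6 and 74.4. A gained site 26.6 kb downstream, also in the BATF3 window, ranked at 55.8 and 34.6 and holds an NF-kB match. In all, 8 of 56 shared sites in the ATF3 window were lower (14.3%, beside 12.2% of all shared sites) and 6 higher (10.7%, beside 15.4%) on all 3 scales. The highest ranks of any gained site near a member, 92.5 and 90.6, were found 141 kb upstream of the canonical start, at chr1:212467682-212468276. This site was nearest to NENF, and an untreated peak lay 270 bp away. A site 12.6 kb downstream, at chr1:212620944-212621679, was lost from strong ranks of 68.4 and 70.0, with a TWEAK peak 187 bp away.

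BATF encodes a short bZIP protein best known in lymphocytes, and lies at chr14:75522455-75546993. It was the only member whose main promoter site ranked higher with TWEAK, on all 3 scales. This site, at chr14:75521314-75521838, is centred 893 bp upstream and does not cover the start. It ranked at 98.0 and 98.3 in untreated and 98.6 and 98.7 in TWEAK lists, a mean of 98.2 ± 0.214 against 98.6 ± 0.0733 (SD, n = 2, exact permutation test p = 0.333). Fold over background was 90.3 and 110 against 112 and 127. The site over the start, at chr14:75522390-75522918, ranked lower, at 82.9 and 86.4 in untreated and 78.7 and 76.5 in TWEAK lists, with overlap by fold. Adjoining sites at the BATF start thus differed in direction by rank.

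Around BATF, 8 of 35 shared sites (22.9%) were higher on all 3 scales, beside 15.4% of all shared sites, and 4 (11.4%) were lower, beside 12.2%. By rank alone 16 were lower (45.7%, beside 35.4%), more than the 8 higher. These shares rest on few sites and were not compared by a test. The site in a BATF intron 17.8 kb downstream of the start, at chr14:75539902-75540559, ranked at 42.2 and 16.0 in untreated and 61.2 and 57.3 in TWEAK lists and holds NF-kB matches. The untreated replicates differed widely from each other there, and both lay below both TWEAK values. Near FLVCR2, the sites 37.6 kb and 38.7 kb downstream were higher with TWEAK, at 73.8 and 75.8 against 87.0 and 85.0, and at 93.2 and 93.8 against 95.2 and 94.8. A gained site with the AP-1 consensus followed 40.0 kb downstream (44.9 and 27.3).

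A strong gained site lay 7.86 kb upstream of BATF at chr14:75514361-75514861, at 51.8 and 57.3, with an NF-kB match and no untreated peak within 3319 bp. Sites lower with TWEAK on all 3 scales lay together in introns of JDP2, which encodes a JUN-dimerising repressor, between 57.9 kb and 64.5 kb upstream. The widest gap of these was at chr14:75464247-75464833, with 76.3 and 78.5 in untreated and 53.3 and 57.3 in TWEAK lists. At promoters of JDP2, a site 90.6 kb upstream was gained at 40.6 and 49.4, with an untreated peak 98 bp away, and a site 93.8 kb upstream was lost from 53.0 and 37.4, with a TWEAK peak 56 bp away. BATF had 3 gained and 3 lost sites of 66, and 54 and 49 sites were listed in untreated and 49 and 48 in TWEAK libraries.

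BATF3, known for its part in dendritic cell development, lies on the minus strand at chr1:212686417-212699840 and had the weakest main promoter site of the members. At chr1:212699147-212699669, it ranked at 64.7 and 61.8 in untreated and 69.4 and 56.0 in TWEAK lists, and the groups overlapped by rank. By fold over background, 11.7 and 11.2 in untreated and 16.3 and 13.0 in TWEAK lists, they did not. Of 33 shared sites in the window, 7 (21.2%, beside 15.4% of all) were higher and 2 (6.06%, beside 12.2%) lower on all 3 scales, and all but 1 of these 7 are also in the ATF3 window. The exception, 21.8 kb upstream of BATF3 at chr1:212721376-212721910, ranked at 96.5 and 96.2 in untreated and 99.0 and 98.8 in TWEAK lists, with fold over background 72.5 and 79.2 against 124 and 131. It was singled out after its values were seen.

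**Figure D5:**
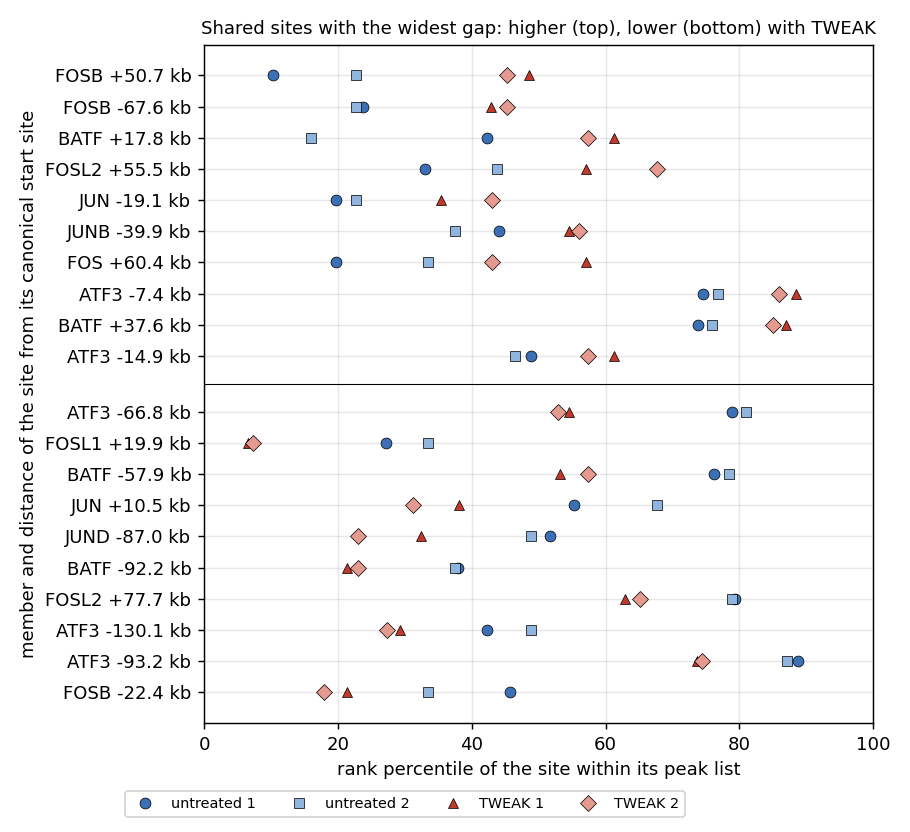
Rank percentile in the 4 lists at the 10 shared sites with the widest gap upward (top) and the 10 with the widest gap downward (bottom) with TWEAK, labelled by member and distance from its canonical start (negative upstream). At every site shown the red TWEAK points and the blue untreated points do not overlap, which follows from how the sites were chosen.

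Among the sites with the widest gaps, all 10 upward ones were also higher by rank among shared sites and by fold over background. Of the 10 downward ones, 7 were lower by fold, and the other 3, which lay 92.2 kb upstream of BATF, 130 kb upstream of ATF3 and 22.4 kb upstream of FOSB, overlapped. The choice of these sites fixes their direction by rank.

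The AP-1 consensus TGACTCA was found within 100 bp of the centre of 61 of the 700 sites (8.71%), beside 9.01% of all sites. It was in 4 of the 20 gained sites (20.0%, beside 16.6% of all gained sites) and 2 of the 25 lost sites (8.00%, beside 4.90%). Of the 40 shared sites that ranked higher, 4 held it (10.0%), beside 22.1% of all such sites. The NF-kB consensus was in 4 of the 20 gained sites (20.0%, beside 20.1%) and in 6 of the 40 higher sites (15.0%, beside 12.7%). With so few sites, these shares describe the sites near AP-1 genes and were not compared by a test.

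Numbers of sites per library gave no firmer separation. Over all 700 sites, 512 and 524 were listed in untreated and 507 and 455 in TWEAK libraries, a mean difference of -37 that was -8 without TWEAK replicate 2, the library with the lowest background. This is a change of -7.14%, beside -5.17% over all sites. Counting only peaks with a deposited value of at least 5 gave a difference of 0.5, and only peaks of at least 5 times the background gave 24 in the other direction. The part of depth in these counts was not tested. For JUN, JUNB, FOS and FOSL1 both TWEAK libraries had fewer sites than both untreated ones, which held for 24.1% of 19715 genes with a site, and for the other 6 members the groups overlapped. With peaks of at least 5 times the background, none of these 4 genes kept the separation, and the differences were 1, 0, 1 and 1.5.

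Genes that act upstream or downstream of AP-1 were counted in the same way. Their counts are read beside the shares given above for all sites (3.60% gained and 3.79% lost). For the main promoters of all genes the shares were 8.37% higher and 35.6% lower by rank, and 25.1% and 7.27% by fold. With so few genes no list is set apart by these counts, and none was compared by a test. The 12 genes of MAP kinases and their upstream kinases had 20 gained and 23 lost of 537 sites (3.72% and 4.28%). The main promoter site ranked higher with TWEAK in 1 of these genes and lower in 3, and by fold over background it was higher in 3 and lower in 0. The one higher by rank was MAPK3, which encodes ERK1 and was higher on all 3 scales, with 82.0 and 84.4 in untreated and 91.4 and 89.9 in TWEAK lists. The 8 related bZIP genes had 17 gained and 23 lost of 470 sites. Of these, CREB5 had 8 gained and 6 lost of its 121 sites, the most sites of any gene in this list. The main promoter site ranked higher in 1 of these genes, CREB5, and lower in 2, and by fold it was higher in 2 and lower in 0. The 4 regulators of FOS transcription, SRF and the ELK genes, had 3 gained and 8 lost of 221. Main promoter sites were higher in 0 and lower in 2 of these 4 genes, both by rank and by fold. The 2 genes, SRF and ELK3, were lower on all 3 scales.

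The 5 MAP kinase phosphatase genes, which end MAP kinase signals, had 6 gained and 10 lost of 257 sites, with 0 promoters higher and 2 lower by rank, and 1 higher and 0 lower by fold. The 11 AP-1 target genes had 14 gained and 21 lost of 620, and of 10 with a main promoter site 1 ranked higher and 4 lower, against 3 higher and 2 lower by fold. The one higher on all 3 scales was TIMP1, a metalloprotease inhibitor, with 86.4 and 86.9 in untreated and 91.1 and 90.3 in TWEAK lists. Lower on all 3 scales were 2 targets, PLAU and CD44, which encodes a hyaluronan receptor. Ranks were 47.4 and 53.0 against 32.5 and 23.0 at CD44, and 92.0 and 91.0 against 90.2 and 88.1 at PLAU. Near CD44, 5 sites were gained and 1 lost of 40, and near PLAU 2 were gained and 8 lost of 152. Over all sites the shares were 3.60% gained and 3.79% lost, and these counts were not tested.

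The 100 kb limit decides which sites count. The outermost gained site inside it lay 97419 bp from a JUN start, at 16.4 and 27.3, and the nearest outside lay 119973 bp from a JUND start, at 16.4 and 17.9. The outermost lost site inside lay 97091 bp from a FOS start, at 19.8 and 9.60, and the nearest outside 107063 bp from a FOSB start, at 19.8 and 37.4. Of the 700 sites, 271 had a member as their nearest gene, and 7 of these were gained and 9 lost. A site near a start need not regulate that gene, and no expression was measured here.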

How the data were processed

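ATAC-seq peak lists of 2 untreated and 2 TWEAK-treated SKBR3 libraries were analysed, 1 list per library, with groups taken from the labels. According to the methods and labels, the authors trimmed adaptors (Trimmomatic), mapped reads to hg38 (Bowtie2), removed mitochondrial and duplicate reads (Bamtools, Picard) and called peaks with MACS2. Versions, settings, any transposase shift and the step that made every peak 501 bp wide are not given in the sources used here. The deposited value of each peak, which the file does not name, was read from the values as the −log10 p-value of a Poisson tail, since whole pileups against 1 background per list gave every value. It rises with depth.

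Peaks on chromosomes 1 to 22 and X were merged into sites at an overlap of at least 1 bp. Gained means a peak in both TWEAK lists and no untreated list, and lost the reverse. Shared sites were called higher or lower where both TWEAK values lay outside the untreated ones on the same side. Promoter sites lay within 1 kb of a start in GENCODE release 44. Single values were compared by exact permutation over the libraries, two-sided. The study's DiffBind analysis could not be repeated on peak lists, which hold no reads. Sites named were up to 3 gained and 3 lost per member with the highest lower rank, and the 10 shared sites with the widest gap each way. Some of these are given only in counts, and 1 strong gained site is not reported here. Others given beside them were chosen after their values were seen. Motifs were searched on both strands as fixed letters. The members and lists were chosen with earlier results of these data known. Alternatives were other overlaps, thresholds, distances, scales, the replicate block and leaving out each library. The scripts were tested on simulated data. Python 3.11.15, numpy 2.4.6, pandas 2.3.3 and scipy 1.17.1 were used.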

Additional observations from a re-analysis of the deposited data

How the results depend on the processing

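Of 20 gained and 25 lost sites near AP-1 genes, merging at 250 bp gave 32 gained (3.98%, beside 3.76% of all sites) and 31 lost (3.85%, beside 3.78%). Counting only sites nearest to a member gave 7 (2.58%, beside 3.60%) and 9 (3.32%, beside 3.79%). Leaving out sites with a close peak of the other treatment gave 12 (1.71%, beside 2.61%) and 16 (2.29%, beside 2.5%). Lost sites numbered 11 with a deposited value of at least 5 (2.11%, beside 3.36%) and 5 at 5 times the background (0.986%, beside 2.33%), and the cause was not tested. Leaving out 1 library, which loosens the definition, gave 42 to 57 gained sites (6.38% to 8.31%, beside 6.54% to 11.6% of all sites). Lost sites numbered 42 to 90 (6.12% to 13.7%, beside 6.56% to 15.9%). Among shared sites, 58 to 98 were higher (16.3% to 27.3%, beside 20.2% to 31.4%) and 174 to 215 lower (46.9% to 60.4%, beside 42% to 57.6%). With 1 library left out, 2 to 3 promoters were higher and 5 in each case lower, and differences in site number ran from -60.5 to -8. The highest counts of sites were reached without TWEAK replicate 2 (57), UT replicate 1 (90), UT replicate 2 (98) and TWEAK replicate 1 (215). Without TWEAK replicate 1, gained sites were 44 (6.52%, beside 9.09%) and lost 56 (8.3%, beside 9.29%). Of 127 shared sites nearest to a member, 18 were higher (14.2%, beside 15.8% of all shared sites) and 51 lower (40.2%, beside 35.4%). At a 50 kb distance, 27 of 223 were higher (12.1%, beside 15.8%) and 86 lower (38.6%, beside 35.4%). By fold over background there were 101 higher and 43 lower sites, 3 higher (FOSL2, BATF and BATF3) and 2 lower promoters. Re-ranking among sites in all 4 lists, chosen after seeing the data, gave 68 higher sites and 2 higher promoters (JUN and BATF), and FOS was no longer lower. The other scales for promoters of pathway genes were likewise added after seeing the data. The difference of -37 sites became 0.5 with a deposited value of at least 5 and 24 at 5 times the background, where JUN, FOS and FOSL1 turned to 1, 1 and 1.5. The FOS promoter turned to 1.20 by fold. Replicate numbers are shared by the groups, but no source says that they pair libraries, and over all shared sites the differences between replicates of the 2 treatments correlated at -0.00607. The replicate block gave 52 higher sites (15.3%, beside 19.8% of all shared sites) and 158 lower sites (46.5%, beside 42.3%). It gave 2 higher promoters, JUN and BATF. Sites weaker than the lowest listed fold over background, 2.79 to 3.79 by library, could not be seen.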
